A study of Mus musculus with 18 samples.

Results

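RNA levels of the genes of necroptosis and of gasdermin pores were compared between *Mtgr1*-/- and WT intestinal epithelium. The set holds 10 genes chosen by name, namely the necroptosis genes *Ripk3* and *Mlkl*, the gasdermins *Gsdmd*, *Gsdmc2*, *Gsdmc3*, *Gsdmc4* and *Gsdme*, the inflammatory caspases *Casp1* and *Casp4*, and the cytokine *Il18*, out of 18838 genes listed in the deposited tables. Crypts were isolated from the duodenum of 6 mice of 8 to 12 weeks, 3 WT (*Mtgr1*+/+) and 3 *Mtgr1*-/-, and RNA was taken from fresh crypts (day 0) and from the enteroids grown from the same mice after 24 h (day 1) and 72 h (day 3) in culture, 1 library per mouse and time point. *Mtgr1* (*Cbfa2t2*), a transcriptional co-repressor, was deleted in the whole animal and in no particular cell type. WT and *Mtgr1*-/- mice were age-matched littermates of both sexes, cohoused and untreated, and the labels name no other allele or agent. The study asked how enteroids without MTGR1 lose viability, and cell death was one of the routes it considered. It reported that gene sets of apoptosis and of p53 were enriched in *Mtgr1*-/- enteroids at day 1 and day 3. Cells with cleaved caspase-3 were modestly more frequent at day 1. Inhibitors of caspases, of necroptosis and of p53 each failed to improve the survival of *Mtgr1*-/- enteroids. The paper proposes that differentiation into absorptive cells, with loss of stem cells, likely underlies the failure.

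Necroptosis is a lytic form of cell death. The kinase RIPK3 phosphorylates MLKL, which then assembles in the plasma membrane and breaks it. Pyroptosis is lytic too, but here caspases cut a gasdermin, whose N-terminal part forms pores. CASP1, activated by inflammasomes, and CASP4 (the mouse caspase-11), which senses cytosolic lipopolysaccharide, both cut GSDMD. CASP1 also matures IL-18, a cytokine made constitutively by intestinal epithelium, and pores let it out of the cell. GSDME is a further gasdermin that forms pores once it is cut. The *Gsdmc* genes are a cluster of close copies that is expanded in mice, and their RNA is known to rise in intestinal epithelium under type 2 cytokines. RNA level says nothing of whether any of these proteins was cut or phosphorylated.

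Between 22035316 and 29661084 reads lay on genes in each of the 18 libraries (median 26258539), as recovered from the deposited normalized counts. *Cbfa2t2* itself did not pass the threshold in any comparison, with log2 differences of -0.047 in crypts, 0.37 at day 1 and 0.056 at day 3 (adjusted p = 0.917, 0.0557 and 0.686, limma), and the part of the gene that the allele removes was not given in the sources used here, so the genotype is written as the label of each library. *Xist* split the libraries alike in both genotypes, with WT mouse 3 and *Mtgr1*-/- mouse 1 at high counts at every time point. The crypt library of WT mouse 3 stood apart in leukocyte RNA, with 3795 normalized counts of *Ptprc* (the pan-leukocyte phosphatase CD45) against 144 to 450.3 in the other 5. Markers of enterocytes were abundant in all libraries. Those of goblet and enteroendocrine cells, by contrast, summed to 177 to 257 and 6.93 to 11.1 CPM (normalized counts relative to the total of the library) in crypt libraries labelled *Mtgr1*-/-, against 5342 to 6192 and 254 to 442 in WT. The crypt library of *Mtgr1*-/- mouse 2 stood apart within its group in the 4 Paneth cell markers, at 1073 CPM against 56.5 and 38.7 in the other 2, and 3194 to 3498 in WT.

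The 3 *Gsdmc* members lie side by side on the minus strand of chromosome 15 (GRCm38), *Gsdmc2* at 63824346 to 63845177, *Gsdmc3* at 63857724 to 63878558 and *Gsdmc4* at 63891264 to 63912297, next to *Gsdmc* itself. Their coding sequences are 97.1% identical between *Gsdmc2* and *Gsdmc3*, 96.7% between *Gsdmc2* and *Gsdmc4* and 96.2% between *Gsdmc3* and *Gsdmc4*, over the 1440, 1192 and 1192 coding bases that lie in exons of equal length (GENCODE M21). How well reads of 50 bp can be assigned to each copy depends on where they fall, and a pair of coding windows of 90 bases shows the range. In the most different window, in the exon before the penultimate one (chr15:63826168-63826257 of *Gsdmc2*, chr15:63859595-63859684 of *Gsdmc3* and chr15:63893121-63893210 of *Gsdmc4*, minus strand), 9 positions differ among the 3 genes and are printed in capitals.
Gsdmc2: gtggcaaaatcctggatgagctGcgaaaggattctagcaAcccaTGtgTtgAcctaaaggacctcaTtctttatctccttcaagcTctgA
Gsdmc3: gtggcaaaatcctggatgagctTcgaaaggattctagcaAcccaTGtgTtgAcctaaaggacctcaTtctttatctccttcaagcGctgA
Gsdmc4: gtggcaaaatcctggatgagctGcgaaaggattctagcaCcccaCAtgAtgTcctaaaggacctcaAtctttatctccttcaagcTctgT
In this window *Gsdmc4* differs from *Gsdmc2* at 7 positions, and *Gsdmc2* from *Gsdmc3* at 2. In the most alike window, in an exon near the 5′ end (exon 4 of *Gsdmc2*, exon 3 of *Gsdmc3* and exon 2 of *Gsdmc4*), the letters are the same in all 3 genes, at chr15:63835770-63835859, chr15:63869124-63869213 and chr15:63902757-63902846.
All 3 copies: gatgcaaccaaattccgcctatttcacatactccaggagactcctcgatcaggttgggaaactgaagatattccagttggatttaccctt
Of all stretches of 50 bases in the longest-coding transcripts, 48.5% in *Gsdmc2*, 41.8% in *Gsdmc3* and 39.0% in *Gsdmc4* occur in another *Gsdmc* copy as well, while the other 7 members share 0 of theirs with any other gene. The split of reads among the *Gsdmc* copies is therefore uncertain, and their sum, with *Gsdmc* added, is given beside them.

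In crypts, *Il18* was lower in the libraries labelled *Mtgr1*-/-, and the *Gsdmc* copies were many times higher without passing the threshold. All 10 genes reached the minimum mean of 10 normalized counts. Of these, 1 passed an adjusted p of 0.05 over all genes tested, where 4.73% of the 12980 genes tested passed and 3.15% were called lower, and 7 had groups that did not overlap, against 25.5% of genes (7 and 24.6% with all libraries scaled to the same total). The 7 include the 3 *Gsdmc* copies, which share reads. *Il18* (chromosome 9, 50554827 to 50581840, plus strand, GRCm38) had 3519.9, 3930.1 and 4517 normalized counts in WT crypts, against 1693, 1844 and 2668 in those labelled *Mtgr1*-/-. Every library of the latter thus lay below every WT library, with means of 3989 ± 501 and 2069 ± 525 (SD, n = 3). The difference was -0.97 (95% interval -1.41 to -0.53, adjusted p = 0.0345, limma) on the log2(normalized count + 1) scale used for every difference here. It was not called when any single library other than *Mtgr1*-/- 3 was left out (adjusted p = 0.0779 to 0.113, limma), nor without the trend in the variance (adjusted p = 0.0739, limma).

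The pore genes of the *Gsdmc* cluster showed the widest spread of all members. *Gsdmc4* had 577, 476 and 609 normalized counts in WT crypts and 30552, 2136 and 6676 in crypts labelled *Mtgr1*-/-. The lowest of these 3 libraries, that of mouse 2, was still above every WT library, and that of mouse 1 was more than 10 times higher again. *Gsdmc2* ran from 186 to 207 in WT and stood at 12185, 477 and 2132 in the others, and *Gsdmc3* from 19.8 to 42.6 and at 2540.1, 76.1 and 492. The mice were thus ordered alike for all 3 copies. The log2 differences were 3.78 (95% interval 1.76 to 5.80, adjusted p = 0.0576, limma) for *Gsdmc4*, 3.55 (adjusted p = 0.116, limma) for *Gsdmc2* and 3.78 (adjusted p = 0.131, limma) for *Gsdmc3*, and 3.73 (95% interval 1.60 to 5.87, adjusted p = 0.0705, limma) for the summed family. The sum was 816, 705 and 840 in WT against 45383, 2696 and 9340. The ratio of the means, 24.3, was thus set mostly by *Mtgr1*-/- mouse 1. Without mouse 2 of the *Mtgr1*-/- group, which was closest to WT, all 3 copies passed, with log2 differences from 4.69 to 5.06 (adjusted p = 0.0138 to 0.0203, limma) and 4.71 (adjusted p = 0.0152, limma) for the sum. *Gsdmc4* passed without mouse 1 too, at 2.77 (adjusted p = 0.0443, limma), and with all libraries scaled to the same total, at 3.81 (adjusted p = 0.0453, limma). In the recovered reads, DESeq2 called all 3 copies (adjusted p = 9.59e-05 for *Gsdmc4*, 0.00107 for *Gsdmc2* and 0.00131 for *Gsdmc3*) and edgeR called none (adjusted p = 0.0549, 0.0806 and 0.0915).

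Tuft cells, the chemosensory cells that start type 2 responses in the gut, were checked by 4 markers (*Dclk1*, *Pou2f3*, *Trpm5* and *Avil*), all 4 of which were present in the table. Their summed level was 52.2, 47.3 and 45.1 CPM in WT crypts and 227, 70.1 and 143 in those labelled *Mtgr1*-/-, so that the mice fell in the same order as for the *Gsdmc* copies, mouse 1 highest and mouse 2 lowest. None of the 4 markers passed the threshold in crypts, with adjusted p from 0.0530 for *Pou2f3* to 0.263 for *Trpm5* (limma). Whether this difference in tuft markers bears on the *Gsdmc* counts was not tested. In bulk RNA of this kind, fewer cells of a type and less RNA per cell cannot be told apart.

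**Figure D1:**
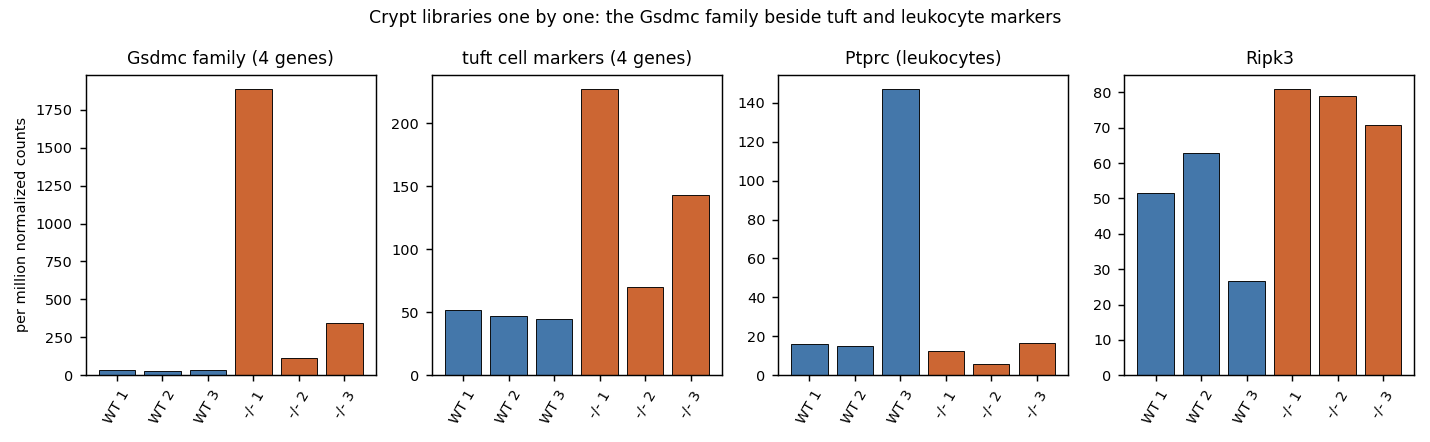
Levels in the 6 crypt libraries, in CPM of each library, with 1 bar per mouse (blue WT, orange Mtgr1-/-), for the summed Gsdmc family, the 4 tuft cell markers summed, Ptprc and Ripk3. The Gsdmc sum and the tuft markers were both highest in Mtgr1-/- mouse 1, and Ptprc stood out in WT mouse 3, where Ripk3 was lowest.

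Of the necroptosis pair, *Ripk3* (chromosome 14, 55784995 to 55788865, minus strand) did not overlap between the groups in crypts, with 1289.9, 1599.8 and 689.5 normalized counts in WT and 1947, 1877 and 1915 in the libraries labelled *Mtgr1*-/-. The low value of WT mouse 3 came from the library with the high leukocyte RNA, and the difference of 0.77 (95% interval 0.088 to 1.44, adjusted p = 0.215, limma) was 0.41 without it (adjusted p = 0.121, limma). *Mlkl* (chromosome 8, 111311797 to 111338177, minus strand) overlapped, with 680.4, 754 and 384 against 942, 676 and 782 and a difference of 0.44 (adjusted p = 0.432, limma), again with WT mouse 3 lowest. The part of leukocyte RNA in these values was not tested.

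*Gsdmd* (chromosome 15, 75862327 to 75867408, plus strand), the substrate of both inflammatory caspases, was the most abundant gasdermin of WT crypts per length. It had 4754, 4911 and 5552 normalized counts in WT and 6624, 6228 and 8087 in the libraries labelled *Mtgr1*-/-, which did not overlap, with a difference of 0.45 (adjusted p = 0.1, limma), and of 0.48 (adjusted p = 0.0456, limma) with equal totals. DESeq2 called it on the recovered reads (adjusted p = 0.0162). *Gsdme* (chromosome 6, 50188888 to 50263862, minus strand) had 143, 133 and 117 in WT against 67.8, 103 and 86.4, without overlap and with a difference of -0.62 (adjusted p = 0.183, limma). The caspase genes showed the smallest differences. *Casp1* (chromosome 9, 5298517 to 5307265, plus strand) and its neighbor *Casp4* (chromosome 9, 5308828 to 5336783, plus strand) overlapped between the groups, with differences of 0.031 (95% interval -0.21 to 0.27, adjusted p = 0.909, limma) and 0.042 (95% interval -0.66 to 0.74, adjusted p = 0.961, limma). In the group labelled *Mtgr1*-/-, *Casp4* spread widely, since *Mtgr1*-/- mouse 2 stood at 1309 and the other 2 at 611 and 648. That library was also the one with the most Paneth marker RNA of its group and the lowest *Gsdmc* counts, and the part of Paneth cell RNA in these values was not tested.

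In day 1 enteroids, *Gsdmd*, *Mlkl*, *Casp1* and *Il18* were higher in the libraries labelled *Mtgr1*-/-. These were 4 of 10 members past an adjusted p of 0.05, all 4 of them higher, where 30.0% of the 12587 genes tested were called higher and 58.9% called in either direction. The same 4 members had groups that did not overlap, against 68.1% of all genes, and 3 of them (not *Il18*) with equal totals, against 69.7%. The members' share of 40.0% was below that of all genes. Libraries labelled *Mtgr1*-/- had higher normalized totals on both days of culture, and scaling every library to the same total, an alternative added after the data were seen, moved the median difference of all genes at day 1 from -0.0080 to -0.33, and at day 3 from 0.0026 to -0.20. With that scaling, 2200 genes were called higher and 5614 lower at day 1, in place of 3776 and 3637, and 2748 and 5089 at day 3, in place of 3826 and 3719. Differences of the members on that scale are therefore given where they end a call or make one.

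Among the 4 called members, *Gsdmd* had the largest difference. Normalized counts were 1973, 1555 and 1732 in WT, against 5929, 4037 and 6680.5 in the libraries labelled *Mtgr1*-/-, with means of 1753 ± 209.8 and 5549 ± 1362 (SD, n = 3). The lowest of the latter was above the highest WT library by more than the whole range of WT, and the difference was 1.64 (95% interval 1.21 to 2.07, adjusted p = 0.000398, limma). *Mlkl*, the executioner of necroptosis, had 683, 578 and 787 against 1473, 964 and 1898, a difference of 1.04 (95% interval 0.49 to 1.59, adjusted p = 0.00684, limma). Its kinase *Ripk3* was not called. *Ripk3* had 2065, 1974 and 2246 in WT and 2862, 1962 and 3919 in enteroids labelled *Mtgr1*-/-, where mouse 2 lay below all 3 WT libraries, and the difference was 0.42 (adjusted p = 0.136, limma) in all libraries and 0.68 (adjusted p = 0.00372, limma) without that mouse.

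*Casp1* was nearly equal in the WT libraries, at 2630.2, 2622 and 2632, and higher in every library labelled *Mtgr1*-/-, at 4242, 3752 and 4348. The difference was 0.64 (95% interval 0.45 to 0.84, adjusted p = 0.000654, limma), and 0.32 (adjusted p = 0.00631, limma) with equal totals. *Il18* had 1425, 1104 and 1337 against 1577, 1769 and 2164, a difference of 0.51 (95% interval 0.17 to 0.84, adjusted p = 0.0172, limma), opposite in direction to that of crypts. In CPM the library of *Mtgr1*-/- mouse 1, at 50.6, lay within the WT range of 48.1 to 57.2. The call was lost with equal totals, at 0.19 (adjusted p = 0.270, limma), and without WT mouse 2, at 0.40 (adjusted p = 0.0617, limma). *Casp4* overlapped, at 463, 367 and 277 against 521, 397 and 577, with a difference of 0.45 (adjusted p = 0.106, limma) that passed without WT mouse 1, at 0.63 (adjusted p = 0.0444, limma), or without *Mtgr1*-/- mouse 2, at 0.60 (adjusted p = 0.0362, limma).

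The *Gsdmc* copies overlapped between the groups at day 1. *Gsdmc4* had 958, 712 and 642 normalized counts in WT and 2936, 795 and 1000.4 in the libraries labelled *Mtgr1*-/-, of which mouse 1 was far above WT, mouse 3 just above and mouse 2 within its range. *Gsdmc2*, at 893, 184 and 258, had mouse 2 and mouse 3 within the WT range of 181 to 266. *Gsdmc3* had 44.8, 36.4 and 28.5 against 229, 43.6 and 67.3. For the summed family the difference was 0.80 (95% interval -0.25 to 1.85, adjusted p = 0.162, limma), for *Gsdmc4* 0.80 (adjusted p = 0.151, limma), for *Gsdmc2* 0.73 (adjusted p = 0.260, limma) and for *Gsdmc3* 1.26 (adjusted p = 0.0848, limma). With the mouse number as a block, since mice of the same number deviated together at this time point, the differences kept their size and the adjusted p was 0.0460 for *Gsdmc4* and 0.0418 for *Gsdmc3* (limma). DESeq2 on the recovered reads called *Gsdmc3* as well (adjusted p = 0.0103). Without *Mtgr1*-/- mouse 2, *Gsdmc4* (1.17, adjusted p = 0.0354, limma), *Gsdmc3* (1.76, adjusted p = 0.0157, limma) and the sum (1.20, adjusted p = 0.0333, limma) passed, which brought the members called to 8. Leaving out that mouse also raised the calls over all genes, to 7874 of 12621 from 7413 of 12587. *Gsdme* did not differ beyond its spread, at 78.7, 83.3 and 142 in WT against 79.3, 92.0 and 78.3 (-0.23, adjusted p = 0.458, limma).

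Cell type markers moved with the genotype at these times as well. The 8 enterocyte markers summed to 5676 to 6726 CPM in WT and 14466 to 21693 in the libraries labelled *Mtgr1*-/- at day 1, and to 3779.7 to 4053 and 11492 to 17098 at day 3, and all 8 were called higher on both days. The 4 tuft markers summed to 20.2 to 26.6 against 10.4 to 15.0 at day 1 and to 19.5 to 22.8 against 10.5 to 13.3 at day 3, and 3 of the 4 were called lower in the libraries labelled *Mtgr1*-/- on each day. *Ptprc* was at 148 normalized counts in WT mouse 3 and 187 in *Mtgr1*-/- mouse 3 at day 1, and at most 36.6 in the other 4, and at day 3 it was at 129 in *Mtgr1*-/- mouse 3 and at most 14.5 in the other 5. The 7 markers of macrophages and dendritic cells summed to 1.27 to 4.22 CPM in WT and 2.34 to 13.9 in the libraries labelled *Mtgr1*-/- at day 1, and to 1.33 to 2.48 and 3.44 to 33.0 at day 3, highest in *Mtgr1*-/- mouse 3 on both days. Of the 3 that passed the filter on each day, *Csf1r*, the receptor of a macrophage growth factor, was called higher at day 1, at 0.915, 0 and 1.68 normalized counts in WT and 36.2, 8.53 and 30.9 in the others, with a difference of 3.70 (adjusted p = 0.00323, limma). *Csf1r* passed the filter at day 1 through the libraries labelled *Mtgr1*-/- alone, so it could hardly be called lower. At day 3 it differed by 4.03 (adjusted p = 0.00280, limma) and *Cd68* by 0.85 (adjusted p = 0.0410, limma). The defining markers *Adgre1*, *C1qa* and *C1qb* were at most 8.38 in the culture libraries of all mice other than *Mtgr1*-/- mouse 3. Markers of Paneth, goblet, enteroendocrine, stem and cycling cells were lower, with 4 of 4, 5 of 5, 5 of 5, 4 of 4 and 4 of 4 tested called lower, the same counts at day 1 and day 3. The part of these cell types in the members' differences was not tested.

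**Figure D2:**
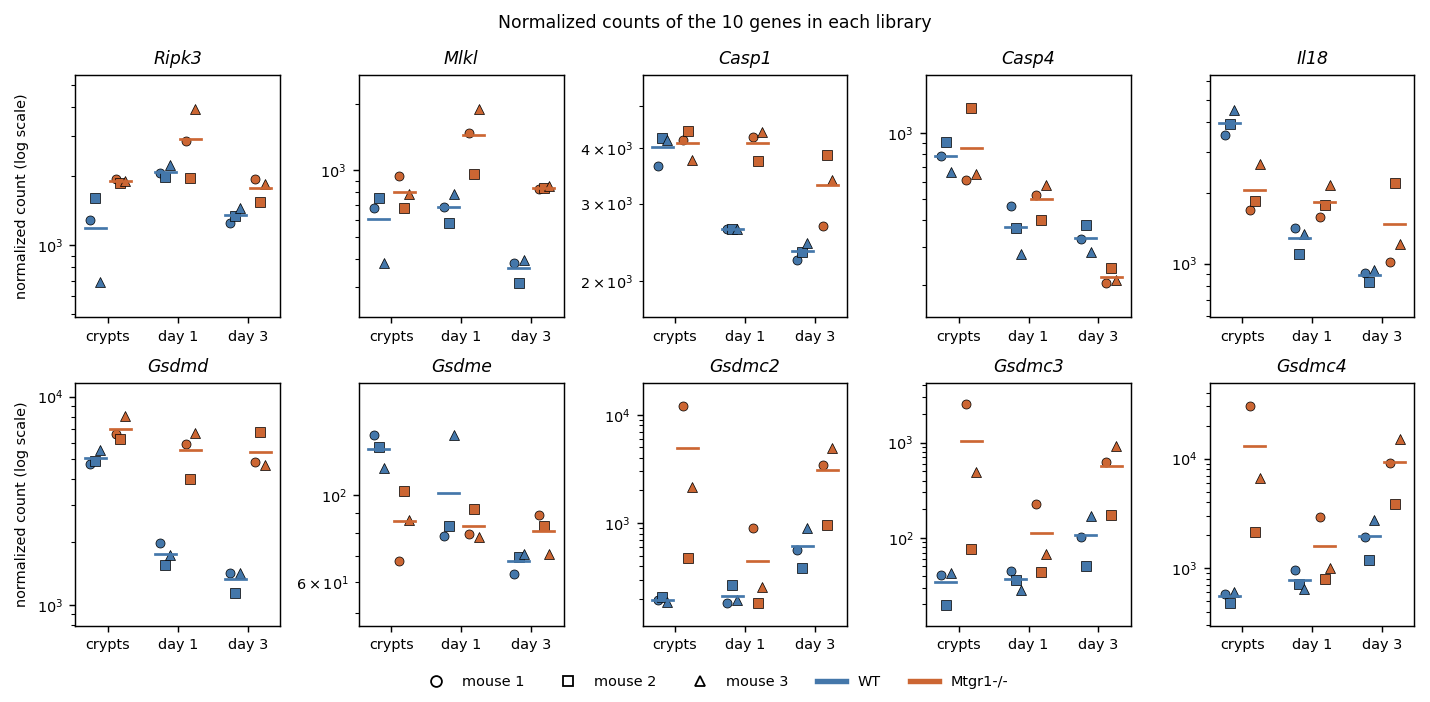
Normalized counts of the 10 genes in each library on a log scale, by time point, with WT in blue, Mtgr1-/- in orange, marker shape for the mouse number and a bar for the mean of each group (n = 3). On these normalized counts the groups did not overlap for any of the 10 genes at day 3 (6 of 10 with equal totals), whereas in crypts Mlkl, Casp1 and Casp4 overlapped.

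In day 3 enteroids, *Gsdmd*, *Mlkl*, the 3 *Gsdmc* copies, *Casp1* and *Ripk3* were higher and *Casp4* was lower in the libraries labelled *Mtgr1*-/-. This made 8 of 10 members past an adjusted p of 0.05 (80.0%), where 59.0% of the 12782 genes tested were called, and 7 of them were higher and 1 lower, against 29.9% and 29.1% of genes. The 3 *Gsdmc* copies share reads and may not be separate measurements, yet they weigh 3 times in this share and in the median and overlap counts that follow. The median difference of the 10 members was 0.92, beside 0.0026 for all genes tested. On normalized counts none of the 10 overlapped between the groups, *Gsdme* by the narrowest margin, where 68.8% of genes did not. With equal totals 6 did not overlap, against 70.8% of genes, and *Ripk3*, *Gsdmc2*, *Gsdmc3* and *Gsdme* did. *Gsdmd* was at 1324 ± 162 in WT against 5436 ± 1177 (SD, n = 3), from single values of 1415, 1137 and 1419 and 4846, 6791 and 4671. The difference of 2.02 (95% interval 1.66 to 2.38, adjusted p = 3.86e-05, limma) had the smallest adjusted p of the members. *Mlkl* had 383, 312 and 396 in WT and a tight 821, 834 and 848 in the libraries labelled *Mtgr1*-/-, a difference of 1.20 (95% interval 0.94 to 1.46, adjusted p = 9.64e-05, limma).

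*Ripk3* was higher by less than its substrate. It had 1256, 1342 and 1454 against 1949, 1547 and 1847, a difference of 0.39 (95% interval 0.15 to 0.64, adjusted p = 0.0135, limma). This call was lost with equal totals, at 0.19 (adjusted p = 0.237, limma), and without WT mouse 1, at 0.34 (adjusted p = 0.0538, limma). *Casp1* had 2233, 2335 and 2447 against 2675, 3863 and 3391, with mouse 1 closest to WT, a difference of 0.49 (95% interval 0.19 to 0.78, adjusted p = 0.0127, limma) and of 0.28 (adjusted p = 0.0402, limma) with equal totals.

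The caspases went opposite ways, although the genes adjoin on chromosome 9. *Casp4* had 326, 377 and 286 in WT and 204, 239 and 211 in the libraries labelled *Mtgr1*-/-, all 3 of which lay below every WT library, and the difference was -0.59 (95% interval -0.91 to -0.27, adjusted p = 0.00741, limma). It kept its call with equal totals, at -0.79 (adjusted p = 0.00215, limma). *Il18*, the substrate of CASP1, had 913, 839 and 941 against 1016, 2213 and 1217 and no overlap, with mouse 2 well above the other 2. The difference of 0.64 (adjusted p = 0.0559, limma) was not called with all libraries, and without that mouse it was 0.31 (adjusted p = 0.0321, limma). Without *Mtgr1*-/- mouse 1 it was 0.87 (adjusted p = 0.0108, limma), and edgeR and DESeq2 called it on the recovered reads of all libraries (adjusted p = 0.0420 and 0.00802). *Gsdme*, the least abundant member per length at this time, had 62.7, 69.5 and 70.7 against 88.7, 83.5 and 70.7 and a difference of 0.25 (adjusted p = 0.249, limma), with the lowest library labelled *Mtgr1*-/- level with the highest of WT.

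The *Gsdmc* copies were again higher at day 3. *Gsdmc4* had 1928, 1179 and 2756 normalized counts in WT and 9101, 3867 and 15150.3 in the libraries labelled *Mtgr1*-/-, with mouse 3 highest and mouse 2 lowest. *Gsdmc2* had 567, 381 and 894 against 3449, 951 and 4934 and *Gsdmc3* 101, 50.8 and 171 against 628, 173 and 915. In WT, too, mouse 3 was highest and mouse 2 lowest for each copy. The differences were 2.14 (95% interval 1.03 to 3.24, adjusted p = 0.00576, limma) for *Gsdmc4*, 2.13 (adjusted p = 0.0127, limma) for *Gsdmc2*, 2.26 (adjusted p = 0.0152, limma) for *Gsdmc3* and 2.15 (95% interval 0.99 to 3.30, adjusted p = 0.00697, limma) for the sum. Without WT mouse 2, *Gsdmc2* was at 1.83 (adjusted p = 0.0534, limma) and *Gsdmc3* at 1.81 (adjusted p = 0.0599, limma). *Gsdmc*, which is no member, had 3.59, 3.56 and 4.84 against 27.3, 17.9 and 62.9 at this time, a difference of 2.71 (adjusted p = 0.00218, limma). It passed the filter through the libraries labelled *Mtgr1*-/- alone, so it could hardly be called lower.

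Among the copies, the share of each in the summed family varied far less than the sum. *Gsdmc4* took 67.3 to 80.9% of the sum over the 18 libraries, *Gsdmc2* 15.3 to 29.4% and *Gsdmc3* 2.81 to 5.61%, whereas the sum itself ran from 705 to 45383 normalized counts in crypts alone. Since reads that fit several copies are divided among them in the quantification, as in the identical window printed above, how far the shares are separate measurements was not tested.

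**Figure D3:**
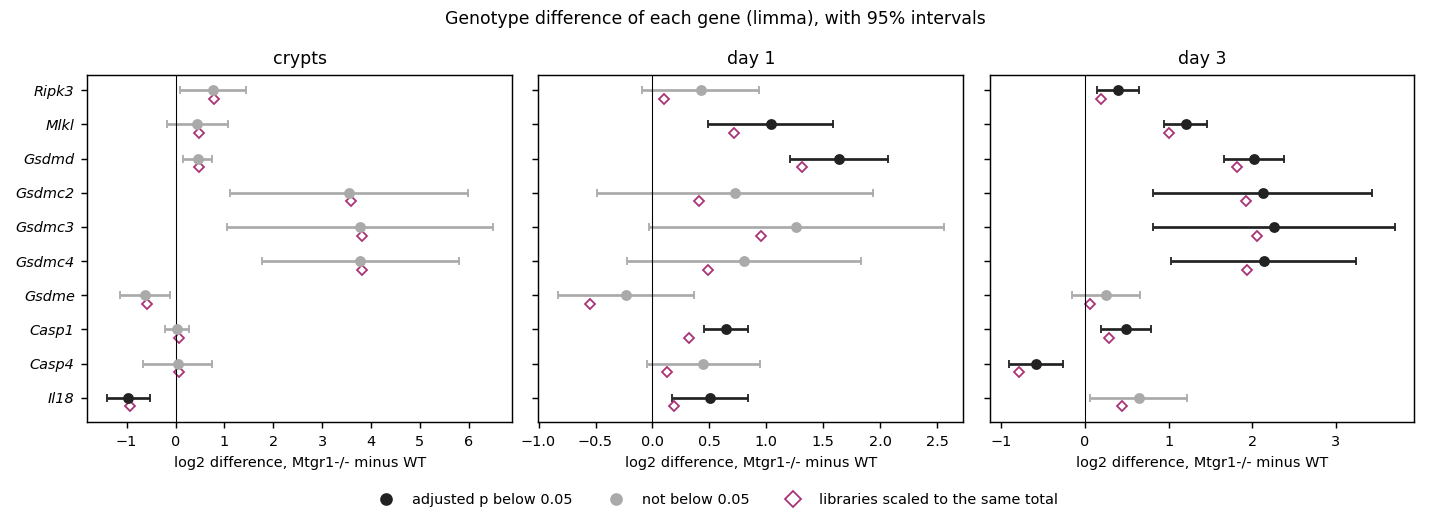
Log2 difference, Mtgr1-/- minus WT, of each of the 10 genes for crypts, day 1 and day 3 (limma on log2(normalized count + 1), n = 3 per group), with 95% intervals, dark where the adjusted p was below 0.05, and open diamonds for the difference with libraries scaled to the same total. Intervals of the Gsdmc copies were wide at each time point, and at day 3 Casp4 was the single member called lower.

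Whether the genotype difference changed with culture was tested over the 18 libraries together, taking libraries of 1 mouse as correlated. Between crypts and day 1, the difference changed for 4 of 10 members, *Gsdmd*, *Casp1*, *Il18* and *Gsdmc4*, where 39.4% of 12937 genes passed, and between crypts and day 3 for 4 of 10, *Gsdmd*, *Casp1*, *Il18* and *Gsdme*, where 30.6% did. Day 3 did not differ from day 1 for any member at an adjusted p of 0.05 (limma), against 0.0309% of genes, and at an unadjusted p below 0.05 for 1, *Casp4* (change -1.04, unadjusted p = 0.0101, limma). The tables of the 3 time points were normalized separately, so levels set across them rest on CPM.

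The genotype difference of *Il18* was negative in crypts and not in enteroids. The positive values in culture were weak, since the day 1 call was lost with equal totals (0.19, adjusted p = 0.270, limma). At day 3 the difference was not called (0.64, adjusted p = 0.0559, limma). As a description, the level of *Il18* was lower at day 1 than in crypts in every mouse, by a mean log2 change of -1.54 in WT (range -1.68 to -1.30) and -0.41 in mice labelled *Mtgr1*-/- (range -0.51 to -0.25). The change of the difference was 1.48 (95% interval 0.78 to 2.17, adjusted p = 0.00370, limma) to day 1 and 1.61 (95% interval 0.92 to 2.30, adjusted p = 0.00355, limma) to day 3, and both calls held under each of 14 alternatives. Those calls are of the change and not of the sign of the difference in culture. *Gsdmd* was lower in culture too, with a mean log2 change of -1.86 from crypts to day 3 in WT against -0.52 in the others. Its genotype difference grew by 1.18 (95% interval 0.65 to 1.72, adjusted p = 0.00320, limma) and 1.57 (95% interval 1.03 to 2.11, adjusted p = 0.000934, limma), also under each of 14 alternatives.

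For *Casp1* the change was 0.61 (adjusted p = 0.00729, limma) to day 1 and 0.45 (adjusted p = 0.0387, limma) to day 3. Both calls were lost with equal totals, at 0.26 (adjusted p = 0.161, limma) and 0.22 (adjusted p = 0.245, limma). Without *Mtgr1*-/- mouse 3 the first was 0.51 (adjusted p = 0.0558, limma), and the second was lost without any of WT 1, WT 2, WT 3, *Mtgr1*-/- 2 or *Mtgr1*-/- 3 (adjusted p = 0.0598 to 0.151, limma). *Gsdmc4* had a smaller difference at day 1 than in crypts, with a change of -2.98 (95% interval -5.15 to -0.80, adjusted p = 0.0312, limma). In mice labelled *Mtgr1*-/- its level fell by 2.77 on the log2 scale from crypts to day 1 and then rose by 2.72 to day 3, while in WT it changed by 0.56 and 1.27. The call was lost without any of WT 1, WT 2, WT 3 or *Mtgr1*-/- 3 (adjusted p = 0.0698 to 0.117, limma).

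*Gsdme*, with differences of -0.62 in crypts and 0.25 at day 3, changed by 0.87 (adjusted p = 0.0404, limma), and this call was lost with equal totals, at 0.65 (adjusted p = 0.147, limma), and without any of the libraries except those of WT mouse 3 (adjusted p = 0.0503 to 0.174, limma). For *Mlkl* the changes of 0.59 (adjusted p = 0.184, limma) and 0.76 (adjusted p = 0.102, limma) were not called with all libraries, but were without WT mouse 3, whose crypts held the leukocyte RNA, at 1.00 (adjusted p = 0.0344, limma) and 1.12 (adjusted p = 0.0317, limma). For *Ripk3* the values were -0.34 (adjusted p = 0.459, limma) and -0.37 (adjusted p = 0.437, limma). Those of *Casp4* were 0.41 (adjusted p = 0.385, limma) and -0.63 (adjusted p = 0.183, limma). Without *Mtgr1*-/- mouse 2, however, 7 members passed between crypts and day 1, among them *Gsdmc2* at -3.50 (adjusted p = 0.00415, limma), *Gsdmc3* at -3.31 (adjusted p = 0.00948, limma) and *Casp4* at 0.91 (adjusted p = 0.00870, limma), and the change of *Casp4* between day 1 and day 3 passed as well, at -1.26 (adjusted p = 0.0154, limma). Leaving out that mouse moved all genes too. Of 12975 genes, 5596 then passed between crypts and day 1 and 891 between day 1 and day 3, in place of 5096 and 4 of 12937. *Gsdmc2* also passed between crypts and day 1 with equal totals, at -3.17 (adjusted p = 0.0464, limma).

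Set side by side per transcript length, in CPM per kilobase of 1 annotated transcript, *Il18* led the members in WT crypts with 182 ± 20.2 (SD, n = 3). *Gsdmd* at 111 ± 7.73 and *Casp1* at 106 ± 7.22 followed, with ranges that overlapped, then *Ripk3* at 24.9 ± 9.77 and *Casp4* at 21.6 ± 3.47, which overlapped too, and *Mlkl* at 12.1 ± 3.99, within the range of *Gsdmc4* at 10.4 ± 1.28. *Gsdmc2*, *Gsdme* and *Gsdmc3* closed the order at 3.58 ± 0.213, 2.06 ± 0.230 and 0.629 ± 0.230. In crypts labelled *Mtgr1*-/-, *Gsdmc4* reached 257 ± 308, with an SD larger than the mean, so that its range took in that of *Gsdmd* at 156 ± 10.6. By day 3 of culture *Casp1* led in WT at 65.2 ± 2.20, with *Il18* at 43.6 ± 2.57, *Gsdmc4* at 39.1 ± 15.5, *Gsdmd* at 30.8 ± 3.85 and *Ripk3* at 29.8 ± 1.84 next, where the ranges of *Il18* and *Gsdmc4*, of *Gsdmc4* and *Gsdmd*, and of *Gsdmd* and *Ripk3* overlapped. In the libraries labelled *Mtgr1*-/- the order at day 3 was *Gsdmc4* at 166 ± 102, *Gsdmd* at 109 ± 17.0, whose ranges overlapped, and *Casp1* at 79.8 ± 9.96. *Ripk3* had a higher mean per length than *Mlkl* in all 6 groups.

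The partners of RIPK3 and MLKL were read from a list of 24 genes (receptors, adaptors, caspase-8 and its regulators, ubiquitin ligases and ZBP1), all 24 of which were tested at each time point. In crypts 0 passed by limma, edgeR or DESeq2 (2 at an unadjusted p below 0.05 by limma), with a median difference of 0.080 beside 0.0076 for all genes. Of all genes, 4.73% passed in crypts by limma, and that share stands beside the crypt counts of each list below as well. Crypt counts by the other tools stand beside 1379 of 12980 genes called by DESeq2 and 559 by edgeR. At day 1, 14 were higher and 1 lower, with a median of 0.40 beside -0.0080, and at day 3, 13 and 2, with a median of 0.32. The share called in either direction, 62.5% on both days, was near that of all genes (58.9% and 59.0%), and the share called higher was 58.3% and 54.2%, beside 30.0% and 29.9% of all genes. With equal totals these counts were 8 and 6 at day 1, with a median of 0.081, and 9 and 6 at day 3, with a median of 0.12. On that scale 2200 of 12618 genes were called higher and 5614 lower at day 1, with a median of -0.33. At day 3 these were 2748 and 5089 of 12780, with a median of -0.20. Counts with equal totals, in the lists below as well, are to be set against these and not against the 30.0% and 29.9%. *Zbp1*, the sensor of Z-form nucleic acid that engages RIPK3 directly, rose most. It had 69.5, 97.9 and 44.4 normalized counts in WT and 644, 212 and 1656 in the libraries labelled *Mtgr1*-/- at day 1, a difference of 3.16 (adjusted p = 0.00481, limma), with mouse 2 lowest and mouse 3 highest, and 19.7, 16.9 and 10.6 against 158, 215 and 316 at day 3, a difference of 3.77 (adjusted p = 5.96e-05, limma). *Ticam1*, which encodes the adaptor TRIF, followed with 1.06 (adjusted p = 0.000378, limma) and 0.96 (adjusted p = 0.000192, limma), with *Rnf31* at 1.05 (adjusted p = 0.00202, limma) at day 1 and *Tnfaip3* at 1.02 (adjusted p = 0.000421, limma) at day 3. *Pgam5*, a mitochondrial phosphatase, was lower on both days (-0.57, adjusted p = 0.00122, limma, and -0.33, adjusted p = 0.0233, limma), and *Fadd*, the adaptor of caspase-8, at day 3 (-0.39, adjusted p = 0.00877, limma).

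Of 25 inflammasome sensors, adaptors and guanylate-binding proteins, 20 were tested in crypts, where *Gbp2* (-1.85, adjusted p = 0.0110, limma) and *Nek7* (-0.96, adjusted p = 0.0296, limma) were lower and 0 higher. At day 1, 13 of 19 were higher and 4 lower, and at day 3, 7 of 18 and 4, with medians of 0.67 and 0.50. Called in either direction were 89.5% and 61.1% of those tested, beside 58.9% and 59.0% of all genes, and called higher 68.4% and 38.9%, beside 30.0% and 29.9%. With equal totals 8 were higher and 4 lower at day 1. *Aim2*, a sensor of cytosolic DNA, went from 82.5, 78.4 and 63.9 in WT to 383, 385 and 225 at day 3, a difference of 2.09 (adjusted p = 0.000214, limma), after 1.73 (adjusted p = 0.00161, limma) at day 1. *Pycard*, which encodes the adaptor ASC that links sensors to CASP1, was lower on both days, with 5206, 5691 and 4480.4 against 2241, 3172 and 2719.8 at day 1 (-0.93, adjusted p = 0.00132, limma) and -0.45 (adjusted p = 0.0185, limma) at day 3. *Casp1* was thus higher and its adaptor lower in the same libraries. *Gbp2*, lower in crypts, was higher at day 1 (1.97, adjusted p = 0.00958, limma). *Nlrp3* was below the minimum mean at every time point, with at most 10.4 normalized counts in any library.

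Among other gasdermins and genes of membrane rupture, 13 of 18 were tested in crypts and 1 was called, *Gsdma*, at 10.5, 5.94 and 10.4 in WT and 103, 63.7 and 48.8 in the libraries labelled *Mtgr1*-/- (2.84, adjusted p = 0.0142, limma). The WT libraries of *Gsdma* alone would not have reached the minimum mean. At day 1, 8 of 9 were higher and 0 lower by limma, and at day 3, 9 of 11 and 1. The shares called were 88.9% and 90.9%, and 88.9% and 81.8% called higher, beside the same 58.9% and 59.0%, and 30.0% and 29.9%, of all genes. With equal totals the counts were 6 and 1, and 8 and 1. *Gsdma2* was lower at day 3, at 47.5, 30.3 and 25.2 against 12.5, 9.94 and 6.74 (-1.71, adjusted p = 0.00487, limma).

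The family of IL-1 and IL-18 held 17 genes, of which 10 were tested in crypts and 0 passed by limma (5 at an unadjusted p below 0.05) or edgeR and 2 by DESeq2. On day 1, 7 of 11 were higher and 1 lower, and on day 3, 8 of 11 and 1, with medians of 0.88 and 0.73 (6 and 1, and 7 and 1, with equal totals). The shares called were 72.7% and 81.8%, and 63.6% and 72.7% called higher, beside the same 58.9% and 59.0%, and 30.0% and 29.9%, of all genes. *Il1rn*, the receptor antagonist of IL-1, went from 276, 189 and 257 in WT to 5759, 4402 and 4376 at day 3, a difference of 4.33 (adjusted p = 4.36e-06, limma), and differed by 2.27 (adjusted p = 0.000207, limma) at day 1. *Il33*, an alarmin released by damaged epithelium, differed by 1.66 (adjusted p = 0.00374, limma) and 3.24 (adjusted p = 4.16e-05, limma). *Il1a* was at 0, 0 and 0.968 normalized counts in the WT libraries of day 3 and at 44.4, 45.7 and 34.8 in the others (adjusted p = 9.26e-05, limma), and *Il1b* stayed below the minimum mean on both days. At day 3 *Il1a* passed the filter through the libraries labelled *Mtgr1*-/- alone. It could thus hardly be called lower, and its place among the 8 called higher carries little weight. *Irak1*, the kinase below the receptors of this family, was lower by limma (-0.48, adjusted p = 0.00223, limma, and -0.40, adjusted p = 0.0162, limma).

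Genes of the type 2 cytokine response form a further list, since *Gsdmc* genes are known to be among its targets. In crypts, 205 of all 12980 genes tested were called higher by limma and 409 lower, and the *Gsdmc* copies themselves were not called by limma. Of this list, 0 of 15 were called higher by limma or edgeR and 1 by DESeq2 (3 at an unadjusted p below 0.05 by limma). By limma 2 were lower, the goblet cell genes *Fcgbp* and *Clca1*, and the median was -0.10. With so few genes called higher in crypts, a list of 15 can hold 0 of them, so this count is no result about type 2 genes. At day 1, 8 of 14 were higher and 2 lower, and at day 3, 9 of 12 and 2. The shares called were 71.4% and 91.7%, and 57.1% and 75.0% called higher, beside the same 58.9% and 59.0%, and 30.0% and 29.9%, of all genes. The Sprr2a genes, which encode small proline-rich proteins and are close copies of each other whose split of reads is uncertain, led at day 3 (*Sprr2a3* 2.40, adjusted p = 9.46e-06, limma, *Sprr2a2* 2.24, adjusted p = 2.71e-05, limma). The counts were the same with equal totals. Of 18 regulators of interferon and NF-kB signaling, 0 passed in crypts by limma (3 at an unadjusted p below 0.05) or edgeR and 2 by DESeq2. At day 1, 12 were higher and 1 lower, and 12 and 2 at day 3, which became 11 and 3, and 10 and 2, with equal totals. The shares called were 72.2% and 77.8%, and 66.7% and 66.7% called higher, beside the same 58.9% and 59.0%, and 30.0% and 29.9%, of all genes. *Irf7* had the largest differences (2.54, adjusted p = 0.00249, limma, and 2.69, adjusted p = 3.00e-05, limma), at 686, 813 and 569.9 against 3951, 1899 and 8340.4 at day 1. As for *Zbp1*, *Mlkl*, *Ripk3* and *Gsdmd*, mouse 2 was lowest and mouse 3 highest among the day 1 libraries labelled *Mtgr1*-/-. *Nfkb1* and *Irf8* were lower at day 3 (-0.31, adjusted p = 0.00648, limma, and -0.49, adjusted p = 0.0215, limma).

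**Figure D4:**
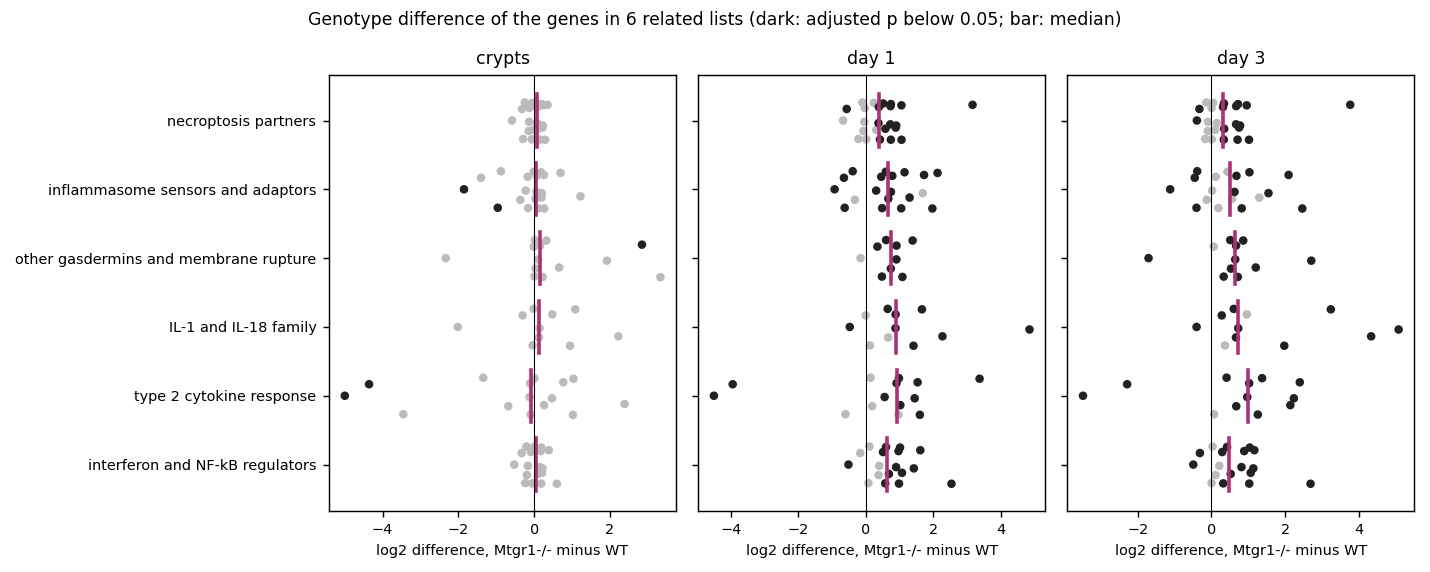
Log2 difference, Mtgr1-/- minus WT, of each tested gene (1 point) of 6 lists related to necroptosis, inflammasomes, gasdermins, IL-1, type 2 cytokines and interferon, in crypts and in enteroids of day 1 and day 3, dark where the adjusted p was below 0.05 (limma), with a bar at the median of each list. Medians lay near 0 in crypts, from -0.10 to 0.16, and above 0 for all 6 lists on both days of culture, from 0.32 to 1.00.

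The genes whose level followed each member most closely over the 18 libraries were found by Pearson's r of log2(CPM + 1) among 12145 genes, as a description, since libraries of 1 mouse and of 1 genotype are not independent. For *Gsdmd* they were *Klc4* (0.98), *Tmem253* (0.98), *Slc7a9* (0.97), and those of *Il18* included *Mgam* (0.96), *Pdgfc* (0.92), of which *Slc7a9* and *Mgam* encode a transporter and a brush border glucosidase of absorptive cells. Each *Gsdmc* copy had the other copies first, with r from 0.98 to 0.99, which cannot be told apart from the sharing of reads, followed by *2200002J24Rik* for *Gsdmc2* and *Gsdmc4* (0.85 and 0.87) and *Etnk2* for *Gsdmc3* (0.87). *Mlkl* was followed by *Rap2c* (0.95), *Bmp2* (0.94), *Arf1* (0.94), *Ripk3* by *Gtf2f1* (0.95), *Dpp3* (0.93), *Pomp* (0.90), *Casp1* by *Parp10* (0.94), *Ppp1r16b* (0.94), *Inpp1* (0.94) and *Casp4* by *Reg3g* (0.91), *Gm1123* (0.90), *Micu2* (0.89). *Gsdme* had the loosest matches, *Mptx2* (0.77), *Ciita* (0.77), *Zg16* (0.77).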

How the data were processed

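RNA was sequenced from 18 libraries (TruSeq stranded mRNA, single reads of 50 bp) of duodenal crypts and of enteroids at 24 h and 72 h. Per the study's methods and the submitters' processing notes, the authors trimmed reads (fastp 0.20.0), assigned them to transcripts by Salmon 1.3.0, which divides a read among the transcripts it fits, summed to genes and normalized by DESeq2 1.26.0. The deposited unit is a normalized count (signal), that is, a gene's count divided by 1 factor per library, with 1 table per time point. The tables also hold the authors' comparison columns (mean, fold change, its error, statistic and p-values), which were not used. Genotype and time were taken from the labels, and 3 mice per genotype were treated as replicates.

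Each value of the 18 libraries was a whole multiple (tolerance 1e-06) of 1 step, which gave recovered reads. In 2 libraries the step was near 1. Genes averaging 10 or more normalized counts were tested with limma 3.58.1 in R 4.3.3 on log2(normalized count + 1), with a variance trend, two-sided, and Benjamini-Hochberg adjustment over all genes of a table (threshold 0.05). The average ran over both genotypes, so a gene near 0 in WT could pass through the libraries labelled *Mtgr1*-/- alone, or the reverse. Such a gene could hardly be called in the other direction, and the counts of lists and markers include such genes. Fold changes on that scale understate those of low genes. Changes between times came from 1 model of 18 libraries over the genes shared by the tables, with the mouse as random effect (within-mouse correlation 0.00576). Alternatives were edgeR 4.0.16 and DESeq2 1.42.0 on recovered reads, other pseudocounts, filters and scalings, array weights, single mice left out, and the mouse number as a block. Mice of the same number correlated at day 1 (0.12, 0.23 and 0.22), so the block is given there, although the labels do not pair mice across genotypes and the main fit held no block. The members and lists were chosen with earlier results of these data known. All members were named, and per list up to 3 of the largest called rises and falls and up to 3 genes below the filter, and some of the genes so chosen are not reported here. Gene models were those of GENCODE M21 on GRCm38, and scripts were tested on simulated data. Reads without molecular identifiers are not independent molecules, so depth limits counting precision only.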

Additional observations from a re-analysis of the deposited data

Results flagged for a closer look

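For 5 of the 10 genes the genotype difference itself differed between crypts and enteroids, in the test of the change (limma, 18 libraries). They were 4 per comparison (40.0%), beside 39.4% of all genes for day 1 and 30.6% for day 3. From crypts to day 1, the difference of *Gsdmd* changed by 1.18 (adjusted p = 0.00320, limma) and that of *Il18* by 1.48 (adjusted p = 0.00370, limma). The corresponding values were 0.61 (adjusted p = 0.00729, limma) for *Casp1* and -2.98 (adjusted p = 0.0312, limma) for *Gsdmc4*. From crypts to day 3 they were 1.57 (adjusted p = 0.000934, limma) for *Gsdmd*, 1.61 (adjusted p = 0.00355, limma) for *Il18*, 0.87 (adjusted p = 0.0404, limma) for *Gsdme* and 0.45 (adjusted p = 0.0387, limma) for *Casp1*. *Il18* was the gene called lower in crypts and higher at day 1, though its day 1 call was lost with equal totals (0.19, adjusted p = 0.270, limma). Single libraries were not tested as outliers, since groups held 3.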

How the results depend on the processing

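Each value was recomputed under 14 to 19 alternatives. Of the 1069 recomputed values for single genes (the members and *Gsdmc*), 973 kept their direction and their side of the threshold, 34 lost a call, 45 gained one and 17 changed sign. Day 3 was the steadiest, with 6 to 9 members called under all 19. In crypts, 1 member was called, against 5 with DESeq2, 6 with array weights, 3 with equal totals, 2 with the *Xist* group as a covariate (added after seeing the data), 0 without the variance trend, and 0 to 3 with single libraries left out. Of all 12980 genes tested there, 614 were called, against 1379 with DESeq2 and 2100 with array weights. The *Xist* covariate gave 669, the fit without the trend 552, and equal totals 563 of 12972. At day 1 the 4 calls became 9 with array weights and 3 to 8 with single libraries left out, 8 without *Mtgr1*-/- mouse 2. Calls over all genes at day 1 rose as well, from 7413 of 12587 to 8802 with array weights and to 7874 of 12621 without that mouse. The changes between times called 4 members (day 1 against crypts, 2 to 7 with single libraries left out), 4 (day 3 against crypts, 2 to 4, and 2 with quantile normalization or equal totals) and 0 (day 3 against day 1, 0 to 1).

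Over all genes, 614 calls in crypts became 2100 with array weights, 1379 with DESeq2 and 176 to 608 with single libraries left out, fewest without WT mouse 1. The changes passed for 5096 genes (day 1 against crypts, 3367 to 5596), 3965 (day 3 against crypts, 1745 to 3819) and 4 (day 3 against day 1, 0 to 891, most without *Mtgr1*-/- mouse 2, 53 with a pseudocount of 8, 17 with quantile normalization and 23 with equal totals). The *Gsdmc* sum in crypts, 3.73, passed with DESeq2 (4.60), array weights (4.61) and the *Xist* covariate (3.73), and ranged over 2.68 to 4.71 with single libraries left out. At day 1 it passed with array weights (1.68) and ranged over 0.20 to 1.20. The cause of these differences was not tested.

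Differences that changed sign were not called under either setting. *Casp1* in crypts was -0.021 with quantile normalization and -0.036 to 0.092 with single libraries left out. *Casp4* in crypts was -0.18 with array weights and -0.31 to 0.24, and *Gsdme* at day 1 -0.39 to 0.035. For the changes between times, the ranges with single libraries left out were -0.64 to 0.060 for *Ripk3* (day 1 against crypts), -0.63 to 0.036 for *Ripk3* and -1.33 to 0.38 for *Gsdmc* (day 3 against crypts), and, for day 3 against day 1, -0.19 to 0.19 for *Ripk3*, -0.10 to 0.38 for *Mlkl*, -0.34 to 0.011 for *Casp1* and -0.22 to 0.36 for *Il18*. *Ripk3* was also at 0.13 with quantile normalization and 0.093 with equal totals there.

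With the mouse number as a replicate block, 2 members were called in crypts (*Gsdmc4* in addition, adjusted p = 0.0457, limma), 6 at day 1 and 8 at day 3, and the block changed no call other than those of *Gsdmc4* in crypts and of *Gsdmc3* and *Gsdmc4* at day 1. Over all genes, the block called 562 of 12980 in crypts, 8027 of 12587 at day 1 and 7289 of 12782 at day 3. Without it these were 614, 7413 and 7545. Same-numbered mice of the 2 genotypes had deviations that correlated at 0.076, 0.27 and 0.35 in crypts, where 1 of the 3 was under 0.1, and at -0.0067, -0.0023 and -0.016 at day 3. With 3 mice per genotype, leaving out 1 leaves 2. The limma p-values set a difference against the spread among so few animals, with each gene's variance drawn toward a trend over all genes tested. Genes with a mean under 10 normalized counts, *Gsdmc* at day 1 among them, were left out by the filter, and without it 17423 genes were tested at day 1 and 7727 called, in place of 12587 and 7413.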
